A study of Homo sapiens with 3 samples.

Results

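The cells described here were 146 single cells of BMP4-treated human micropatterned colonies that carried mRNA of CDX2 together with TBXT. They were chosen by UMI (unique molecular identifier, 1 per captured mRNA molecule) counts, which required at least 1 UMI of CDX2 and at least 2 of TBXT, at most 1 of MESP1 and of SOX17, and none of TFAP2A. They made up 1.55% (exact 95% interval 1.31 to 1.82) of the 9401 cells kept from the BMP4 library and 11.3% (9.65 to 13.2) of the 1288 cells that met the same limits apart from CDX2. The other 1142 of those 1288 cells had no CDX2 UMI and served as the comparison. All intervals here cover counting error only.

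TBXT (brachyury) is the T-box transcription factor of the primitive streak, the strip of the epiblast through which cells leave to form mesoderm and endoderm. CDX2, CDX1 and EVX1 are homeobox transcription factors that mark the posterior (caudal) end of the streak, where WNT and BMP signals are high, whereas EOMES, LHX1, GSC and CER1 mark its more anterior parts, where NODAL signals are high. In human colonies treated with BMP4, CDX2 is also a gene of amnion-like and extraembryonic cells at the colony edge, so a CDX2 transcript alone does not name a cell type. The limits on MESP1 (nascent mesoderm), SOX17 (endoderm and germ cells) and TFAP2A (amnion and surface ectoderm) were set to leave out such cells. Absence of a TFAP2A UMI does not exclude an amnion-like cell, and levels of amnion genes are given below.

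The study used HES3 MIXL1:GFP cells, a human embryonic stem cell line with a fluorescent reporter at the mesendoderm gene MIXL1, seeded on micropatterned coverslips with 10 µM Y-27632. After 24 hours, colonies received 50 ng/mL BMP4, or 6 µM CHIR99021, which inhibits GSK3 and so activates WNT signalling, or 3 µM CHIR99021 with 100 ng/mL Activin A, which acts through the NODAL receptors. After a further 48 hours about 10 micropatterns for each treatment were pooled and loaded in 1 channel, for 9401 BMP4, 7084 CHIR and 6876 CHIR+Activin cells kept. With 1 library a treatment there was no replicate check, cells of a library are not replicates, and no test was made. From 8 to 12 cell barcodes were shared by each pair of libraries. The labels name a line and not its number of clones.

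The CDX2-positive cells held 4041, 12836 and 29605 UMIs at the lowest, the median and the highest, against a median of 12943.5 in the comparison cells. Mitochondrially encoded genes gave a median of 4.19% of UMIs in the first and 4.20% in the second. The 2 groups were thus of like depth. Summed over cells they gave 1979207 and 16334069 UMIs, and levels below are CPM, a gene's UMIs scaled by the group's total in the usual way. For a gene with no UMI, the limit that a count of 0 allows (3 counts) was 1.52 CPM in the CDX2-positive cells and 0.184 CPM in the comparison.

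The 2 genes that chose the cells were low in count. CDX2 had 1 UMI in 115 of the 146 cells, 2 in 21, 3 in 7 and 4 in 3. TBXT ran from 2 UMIs in 38 cells to a highest value of 12, with a median of 4 against 3 in the comparison cells. Its level was 321 against 252 CPM, a log2 ratio of 0.35 (0.23 to 0.47), so the groups were not matched for TBXT. Most of these cells thus carried the smallest CDX2 count that the rule accepts, and comparison cells may hold CDX2 mRNA that was not captured. To set the CDX2 share against its background, each BMP4 cell was thinned to 8000 UMIs, and 803 shallower cells were left out. CDX2 was then found in 118 of 1277 cells (9.24%, 7.71 to 11.0) with TBXT, at a median of 13789 UMIs before thinning. Among SOX2-positive, TBXT-negative cells, which should lack CDX2, it was found in 2 of 244 (0.820%, 0.0994 to 2.93), at a median of 13797 UMIs. The share with TBXT lay above that background. CDX2 was not particular to these cells, since it was found in 17.2% (13.8 to 21.0) of cells with TFAP2A and GATA3, in 20.2% (16.8 to 23.9) of cells with SOX17 and in 9.57% of all cells at that depth. Free RNA in 85987 droplets of 10 to 200 UMIs held CDX2 at 10.9 CPM and TBXT at 161 CPM, and beyond the share in SOX2-positive cells its part in the 1-UMI cells was not tested.

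The name caudal streak-like was set beside 4 marker genes that the rule did not use, and 3 of the 4 were higher. The cells and the gene lists that hold these 4 were chosen with earlier results of these data known. The 4 genes are thus not an independent check. WNT8A, a secreted WNT ligand of the posterior streak, stood at 30.8 CPM against 13.8 CPM in the comparison, a log2 ratio of 1.16 (0.72 to 1.57). EVX1 stood at 37.4 against 21.6 CPM, a log2 ratio of 0.79 (0.41 to 1.16). CDX1, a relative of CDX2, stood at 32.8 against 19.3 CPM, a log2 ratio of 0.77 (0.36 to 1.16). CYP26A1, which degrades retinoic acid and is also a gene of the early streak, went the other way, with 71.2 against 95.6 CPM and a log2 ratio of −0.42 (−0.68 to −0.17). None of the 3 higher genes was a gene of every cell. After thinning, a WNT8A UMI was found in 20.6% of 131 CDX2-positive and 10.3% of 1075 comparison cells. The share was 0.820% of 366 SOX2-positive, TBXT-negative cells of the epiblast gate described below. All 377 cells of that gate, before shallow ones were left out, had a median depth of 14538 UMIs. Without thinning the WNT8A shares were 35.6% and 16.8%. EVX1 was found in 25.2% and 14.9% after thinning (40.4% and 25.2% before), and CDX1 in 22.1% and 12.8% (31.5% and 20.1% before). Of the 146 cells, 29 had a UMI of none of the 4 genes and 70 had a UMI of at least 2. The EVX1 ratio was 0.24 when all cells were thinned before gating and 0.28 with TBXT of at least 4 UMIs. The CDX1 ratio was 0.39 with TBXT of 2 to 5 UMIs. The HOX genes that mark the trunk were nearly absent. Of 39 HOX genes, none reached 10 CPM and 33 had no UMI in the 146 cells.

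The promoters of 4 higher genes are shown because a 6-base word bound by CDX factors or by T-box factors lies in each. They are the 250 bases before the annotated start, on the gene's own strand, from the RefSeq table of build GRCh38.p14, and the capitals mark the word. The submitters counted on a build not given in the sources used here. WNT8A lies at chr5:138083783-138084032 (plus strand), HPGD at chr4:174522489-174522738 (minus), CA12 at chr15:63381847-63382096 (minus) and EVX1 at chr7:27242552-27242801 (plus).
WNT8A: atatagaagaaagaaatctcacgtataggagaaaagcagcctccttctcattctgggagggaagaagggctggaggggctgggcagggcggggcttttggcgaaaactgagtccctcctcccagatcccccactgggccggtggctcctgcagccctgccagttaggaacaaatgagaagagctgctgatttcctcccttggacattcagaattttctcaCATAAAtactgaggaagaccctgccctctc
HPGD: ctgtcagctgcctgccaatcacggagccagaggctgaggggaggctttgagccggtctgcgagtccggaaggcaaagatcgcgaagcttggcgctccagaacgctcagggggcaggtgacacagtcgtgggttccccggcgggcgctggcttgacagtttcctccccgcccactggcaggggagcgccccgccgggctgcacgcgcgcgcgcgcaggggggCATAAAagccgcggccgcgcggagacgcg
CA12: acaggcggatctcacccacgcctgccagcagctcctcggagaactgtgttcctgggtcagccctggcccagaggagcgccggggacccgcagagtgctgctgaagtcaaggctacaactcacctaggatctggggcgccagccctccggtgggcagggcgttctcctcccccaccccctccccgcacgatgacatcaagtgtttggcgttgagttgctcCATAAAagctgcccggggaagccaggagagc
EVX1: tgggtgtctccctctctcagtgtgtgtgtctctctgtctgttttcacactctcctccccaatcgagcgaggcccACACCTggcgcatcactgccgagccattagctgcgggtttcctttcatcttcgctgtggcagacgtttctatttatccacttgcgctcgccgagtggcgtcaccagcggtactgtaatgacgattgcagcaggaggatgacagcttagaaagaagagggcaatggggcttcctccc
The CDX word TTTATG, searched on both strands, was read as its reverse CATAAA in WNT8A, HPGD and CA12, with its first base 30, 29 and 31 bases before the start. CATAAA resembles the TATA box TATAAA, which usually lies at about that distance, and no CDX word overlapped a TATAAA in these 3. Among named genes at least 1.5-fold higher, 22 of 29 were in the table and 3 of the 22 held the CDX word, against 0 of the 19 matched lower genes (of 31). Of all 27305 promoters of that length, 10.0% held it. The T-box word AGGTGT (reverse ACACCT) was in 3 of the 22 (EVX1, WNT5B and FGF13) and 1 of the 19 (ZIC2), against 9.66% of all promoters. The TCF/LEF word CTTTGAT (reverse ATCAAAG) was in none of either set, against 2.28% of all. A word match is a description of letters and not a binding site.

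Across genes, 9908 reached 10 CPM in at least 1 of the 2 groups, and most lay close to equal levels, with a median log2 ratio of −0.02. Of these, 218 (2.20%) were at least 1.5-fold higher in the CDX2-positive cells and 380 (3.84%) at least 1.5-fold lower. At 10 CPM about 20 UMIs of the 146 cells carry a value, so counting error alone moves many genes past that fold. Of the 4016 genes at 50 CPM or more, 27 (0.672%) were higher and 45 (1.12%) lower. The genes named below as highest and lowest are the 15 with the largest ratio in each direction among those.

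**Figure D1:**
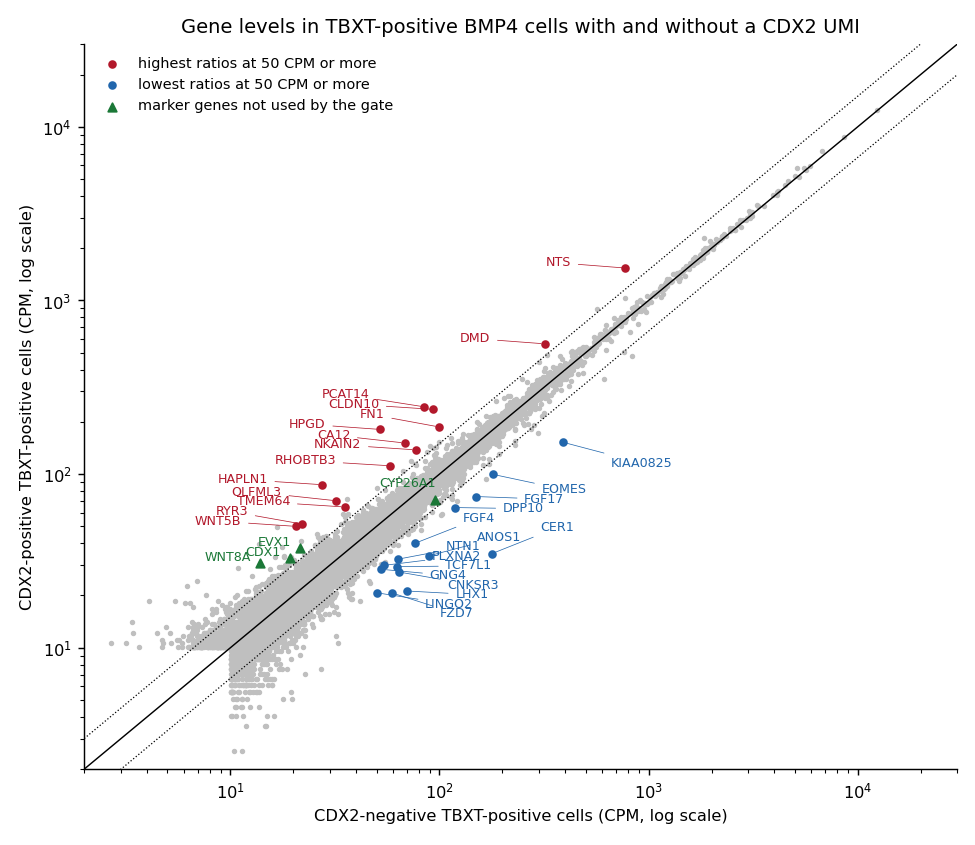
Level of each gene (points) in the 1142 CDX2-negative cells (horizontal axis, CPM, log scale) and the 146 CDX2-positive cells (vertical axis, CPM, log scale), for genes at 10 CPM or more in either group and above 0 in both. The solid line marks equal levels and the dotted lines 1.5-fold. Most genes lie within the dotted lines. Among genes at 50 CPM or more, HPGD, HAPLN1 and PCAT14 lie farthest above and CER1, LHX1 and FZD7 farthest below.

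The genes highest in the CDX2-positive cells were of varied function, and no shared theme was tested. HPGD, the enzyme that inactivates prostaglandins, stood at 181 against 51.9 CPM, a log2 ratio of 1.80 (1.62 to 1.98), and was found in 81 of 146 cells (55.5%) against 28.0% of comparison cells. HAPLN1, which links hyaluronan to proteoglycans in the matrix, stood at 86.9 against 27.4 CPM, a log2 ratio of 1.66 (1.40 to 1.92). PCAT14, a long noncoding RNA, stood at 244 against 84.5 CPM, a log2 ratio of 1.53 (1.38 to 1.68). These 3 had the largest ratios of the 15. CLDN10, a tight junction protein, stood at 236 against 93.5 CPM, with a log2 ratio of 1.33 that was 0.40 when cells were thinned before gating. CA12, a carbonic anhydrase of the cell surface, stood at 151 against 68.1 CPM, a log2 ratio of 1.15 (0.96 to 1.34). NTS, the precursor of the peptide neurotensin, was the most abundant of the set, with 1537 against 775 CPM, a log2 ratio of 0.99 (0.93 to 1.05). FN1, the matrix protein fibronectin, stood at 187 against 99.4 CPM, a log2 ratio of 0.91 (0.74 to 1.07). Others of the 15 were WNT5B, the calcium channel RYR3, the secreted protein OLFML3, RHOBTB3, TMEM64, NKAIN2 and dystrophin (DMD), with log2 ratios from 0.82 to 1.29.

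Many of these genes were higher still in amnion-like cells. In 921 BMP4 cells with TFAP2A and GATA3 (the amnion gate), 9 of the 15 stood above their level in the CDX2-positive cells, among them HPGD at 743 CPM, CLDN10 at 1484 CPM and PCAT14 at 609 CPM. None of the 15 did so in 1415 cells gated as nascent mesoderm (MESP1 of at least 2 UMIs, HAND1 and TFAP2A at 0), and none in 377 epiblast-gated cells (SOX2 of at least 2 UMIs, TBXT and CDX2 at 0). The amnion list moved with the CDX2 gate. Its 13 genes other than TFAP2A and GATA3 summed to 258 CPM in CDX2-positive cells, 80.9 CPM in the comparison, 127 CPM in the nascent mesoderm gate, 28.6 CPM in the epiblast gate and 1062 CPM in the amnion gate. Most of that was HPGD and TBX3, and the other 11 genes summed to 27.8 CPM in CDX2-positive cells, 12.3 CPM in the comparison and 199 CPM in the amnion gate. Of the 3 list genes that reached 10 CPM, all were at least 1.5-fold higher, against 2.20% of all genes compared. They were HPGD, TBX3 (49.5 against 16.7 CPM) and GATA3 (17.7 against 9.12 CPM), whereas KRT7, VTCN1 and WNT6 had no UMI in the 146 cells. ISL1, a transcription factor of amnion and lateral mesoderm, stood at 6.57 against 1.96 CPM, and DLX5 at 7.07 against 1.47 CPM, both far under the 69.1 and 41.9 CPM of the amnion gate. UMIs of at least 3 of the 13 genes were held by 16 of 146 CDX2-positive cells (11.0%), 21 of 1142 comparison cells (1.84%) and 551 of 921 amnion-gated cells (59.8%). With every cell that held a UMI of the list other than of HPGD and TBX3 left out, 88 CDX2-positive and 864 comparison cells remained. In these, log2 ratios were 2.05 for HPGD, 1.75 for CLDN10, 1.25 for WNT8A, 0.80 for CDX1 and 0.71 for EVX1. HPGD and CLDN10 had been picked for their ratio over the 146 cells, which include these 88. That alternative was chosen after the data were seen.

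**Figure D2:**
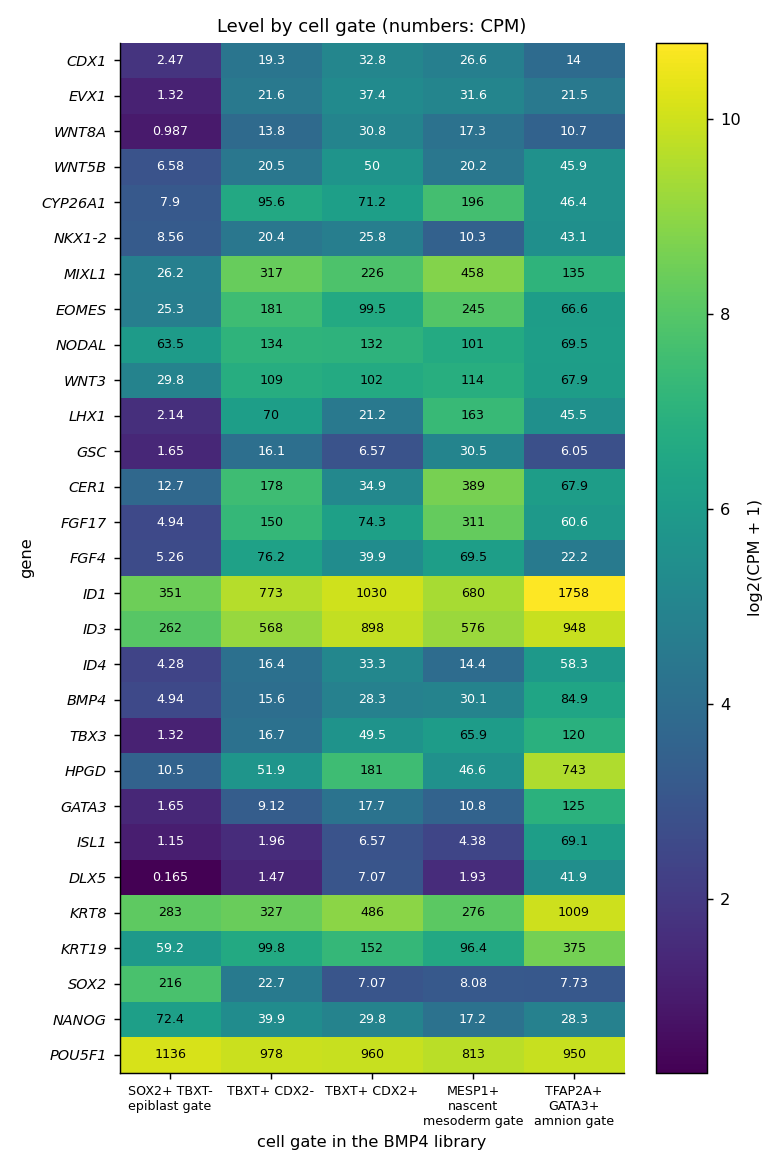
Level of 29 genes in 5 sets of BMP4 cells, with colour as log2(CPM + 1) and the number in each field as CPM. CDX1, EVX1 and WNT8A are highest in the TBXT+ CDX2+ column, HPGD and KRT8 are higher still in the amnion gate, and CER1, LHX1, EOMES and FGF17 are highest in the nascent mesoderm gate.

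Among caudal genes, WNT8A, EVX1 and CDX1 were lower in the amnion gate than in the CDX2-positive cells, and NKX1-2 was higher there. WNT8A stood at 30.8 CPM in the CDX2-positive cells, 17.3 CPM in the nascent mesoderm gate, 10.7 CPM in the amnion gate and 0.987 CPM in the epiblast gate. EVX1 stood at 37.4, 31.6, 21.5 and 1.32 CPM in the same order, and CDX1 at 32.8, 26.6, 13.997 and 2.47 CPM. All 3 were thus highest in the CDX2-positive cells of these 4 sets, though for EVX1 and CDX1 the nascent mesoderm gate came close. The list of caudal epiblast genes, 18 in all, had 11 measured, meaning at 10 CPM in either group and not used by the rule. Of the 11, WNT8A, WNT5B, EVX1 and CDX1 were at least 1.5-fold higher and FGF17 lower. Over all genes compared, 2.20% were higher and 3.84% lower. The median log2 ratio of the 11 was 0.33 against −0.02 over all genes. The summed level of all 18 genes did not follow the median, at 509 CPM in the CDX2-positive cells, 532 CPM in the comparison and 846 CPM in the nascent mesoderm gate. NKX1-2, a homeobox gene of the caudal epiblast, stood at 25.8 against 20.4 CPM, a log2 interval that spans 0 (−0.12 to 0.76), and at 43.1 CPM in the amnion gate.

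Among secreted signals, 2 of 4 measured WNT ligands were higher and 3 of 6 measured FGF ligands lower. Over all genes compared, 2.20% were higher and 3.84% lower. WNT5B, a ligand that acts mainly without beta-catenin, stood at 50.0 against 20.5 CPM, a log2 ratio of 1.29 (0.95 to 1.61), and at 45.9 CPM in the amnion gate. WNT3, the ligand that starts the streak, stood at 102 against 109 CPM. WNT5B and WNT8A were the 2 that were higher, of 15 WNT ligand genes in the list. The WNT feedback list had 10 measured genes with 0 higher and 1 lower, TCF7L1, a repressor of WNT target genes, at 29.3 against 62.8 CPM and a log2 ratio of −1.10. SP5 and AXIN2, direct targets of WNT signalling, stood at 90.4 against 94.6 CPM and 24.3 against 27.2 CPM, with intervals that span equal levels. The WNT receptor gene FZD7 was among the 15 lowest, with 20.7 against 59.0 CPM and a log2 ratio of −1.51 (−2.00 to −1.06). Ligands and a receptor of the pathway thus differed by more than their counting error, and these 2 targets did not. FGF17 stood at 74.3 against 150 CPM, a log2 ratio of −1.01 (−1.26 to −0.77), and FGF4 at 39.9 against 76.2 CPM, a log2 ratio of −0.93. FGF4, FGF17 and FGF19 were the lower genes, FGF13, an intracellular member of the family, was higher, and FGF2 and FGF8 lay between. The FGF19 ratio of −0.62 was −0.19 with cells thinned before gating, and the FGF13 ratio of 0.61 was 0.36 in cells with 1 CDX2 UMI, so both calls ended there. The ERK feedback list had 10 measured genes, none higher and 1 lower. That gene, DUSP6, had 15 UMIs in the 146 cells and a log2 ratio of −0.68 (−1.55 to 0.07), whose sign was not kept after thinning.

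Of the measured primitive streak genes 5 of 11, and of the NODAL pathway genes 3 of 9, were lower in the CDX2-positive cells. The share over all 9908 genes compared was 3.84%. CER1, a secreted antagonist of NODAL and BMP, stood at 34.9 against 178 CPM, a log2 ratio of −2.35 (−2.72 to −2.01). A CER1 UMI was found in 16 of 146 cells (11.0%) against 37.0% of comparison cells, and after thinning in 8.40% against 29.1%. Of the 69 CER1 UMIs, 27 came from 1 cell, and without that cell the level was 21.5 CPM and the log2 ratio −3.06. LHX1, a homeobox gene of the anterior streak, stood at 21.2 against 70.0 CPM, a log2 ratio of −1.72 (−2.20 to −1.28), while the shares of cells with a UMI were nearer to each other, at 15.1% and 22.5%. The highest LHX1 count was 6 UMIs in a CDX2-positive cell and 68 in a comparison cell. EOMES, the T-box factor of the anterior streak and endoderm, stood at 99.5 against 181 CPM, a log2 ratio of −0.86 (−1.08 to −0.65). GSC stood at 6.57 against 16.1 CPM on 13 UMIs. The 5 lower primitive streak genes were EOMES, FGF4, GSC, LHX1 and GATA6 and none was higher, with a median log2 ratio of −0.51. MIXL1, the gene of the reporter, was 226 against 317 CPM, a log2 ratio of −0.49 (−0.63 to −0.35) that misses the 1.5-fold limit. In the NODAL list, LEFTY1 (7.58 against 27.2 CPM), LEFTY2 (19.2 against 30.5 CPM) and CER1 were lower among 9 measured genes, with a median of −0.48. LEFTY1 and LEFTY2 are near-identical copies whose reads the counting can split, and LEFTY2 was at −0.21 with TBXT of at least 4 UMIs. NODAL itself stood at 132 against 134 CPM, a log2 ratio of −0.02 (−0.21 to 0.17). These 3 inhibitors of NODAL were thus lower while the ligand was level within its counting error. The difference was not limited to inhibitors. TDGF1 of the same list stood at 122 against 173 CPM, a log2 ratio of −0.51 (−0.70 to −0.32), and GDF3 was at −0.48. Neither was past 1.5-fold, and 0 of the 9 measured genes were 1.5-fold higher. Of 4 measured definitive endoderm genes, CER1 and GATA6 were lower and none higher. HHEX had no UMI in the CDX2-positive cells against 3.24 CPM.

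Of 13 measured genes of the BMP response list, 6 were at least 1.5-fold higher, 1 was lower and 6 lay between. Over all genes compared, 2.20% were higher and 3.84% lower. ID3, a target of BMP signalling that blocks basic helix-loop-helix factors, stood at 898 against 568 CPM, a log2 ratio of 0.66 (0.57 to 0.75). ID1 stood at 1030 against 773 CPM, a log2 ratio of 0.41 (0.35 to 0.48). ID4 stood at 33.3 against 16.4 CPM and MSX1, a homeobox target, at 12.1 against 3.43 CPM. The 6 higher genes were ID3, ID4, MSX1, SMAD9, BMP4 and BMP7, the lower one was BMP2 (7.07 against 14.9 CPM), and the median log2 ratio was 0.48. With cells thinned before gating, the log2 ratio of SMAD9 went from 1.74 to 0.01, that of BMP7 from 0.81 to 0.10 and that of BMP4 from 0.86 to 0.53, so these 3 calls ended. In cells with 1 CDX2 UMI, ID3 was at 0.56 and ID4 at 0.57, just under the limit. BMP4 mRNA stood at 28.3 against 15.6 CPM. In the amnion gate, ID1 stood at 1758 CPM, ID3 at 948 CPM and BMP4 at 84.9 CPM, so this list moved with the amnion markers given above. In the cells without a UMI of the amnion list other than of HPGD and TBX3, the log2 ratio was 0.66 for ID3, 0.65 for ID4, 2.06 for MSX1 and 0.89 for BMP4. Of 6 measured genes of lateral or extraembryonic mesoderm, BMP4, TBX3 and BMPER were higher and GATA6 was lower. BMPER was at 0.28 and GATA6 at −0.44 in the alternatives that moved them most towards 0, which ended both calls. HAND1, the defining gene of that list, had 33 UMIs in 18 of the 146 cells, 16.7 against 11.4 CPM (log2 ratio −0.04 to 1.08), and 331 CPM in the amnion gate.

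Pluripotency genes differed in part. SOX2, which marks epiblast and neural cells, stood at 7.07 against 22.7 CPM, a log2 ratio of −1.68 (−2.57 to −0.92), and was found in 10 of 146 cells. OTX2, a gene of anterior epiblast, stood at 3.54 against 14.6 CPM. POU5F1, which stays on in the early streak, stood at 960 against 978 CPM, a log2 ratio of −0.03 (−0.10 to 0.04). Of 17 measured genes of the list, SOX2, OTX2, USP44 and ZIC2 were lower and none higher, with a median of −0.24. The lower share over all genes compared was 3.84%. The ZIC2 ratio of −0.66 was −0.51 in cells with 1 CDX2 UMI. KIAA0825, one of the 15 lowest genes, stood at 153 against 389 CPM and at 566 CPM in the epiblast gate. Among the 15 lowest, 7 stood higher in the epiblast gate than in the comparison (FZD7, ANOS1, KIAA0825, LINGO2, TCF7L1, GNG4 and DPP10, with LINGO2 at −1.28 and at −0.18 with thinning before gating) and 8 stood higher in the nascent mesoderm gate (CER1, LHX1, FZD7, CNKSR3, FGF17, NTN1, PLXNA2 and EOMES, with PLXNA2 at −0.86 and at −0.44 with MESP1 and SOX17 at 0). Whether the comparison cells include more cells near those 2 states, and what part that has in the ratios, was not tested.

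Of 10 measured genes of adhesion and of epithelial to mesenchymal transition, FN1 was higher and CDH2 lower. Over all genes compared, 2.20% were higher and 3.84% lower. CDH1, the epithelial cadherin lost when cells leave the streak, stood at 161 against 143 CPM (log2 ratio −0.00 to 0.34), and CDH2, the cadherin gained then, at 181 against 274 CPM, a log2 ratio of −0.60 (−0.76 to −0.44). SNAI1, a repressor of CDH1, stood at 20.7 against 20.3 CPM. The CDH2 ratio was −0.46 in cells with 1 CDX2 UMI. The simple keratins KRT8, KRT18 and KRT19 had log2 ratios of 0.57, 0.57 and 0.61, with KRT19 past the 1.5-fold limit at 152 against 99.8 CPM, and under it at 0.43 with thinning before gating. KRT8 and KRT18 have many pseudogene copies, and all 3 stood highest in the amnion gate (1009 CPM for KRT8).

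Some nascent mesoderm genes were lower. Of 8 measured nascent mesoderm genes, APLNR, PDGFRA and DLL3 were lower and none higher, with a median of −0.18. For this and the lists below, the shares over all genes compared were 2.20% higher and 3.84% lower. PDGFRA stood at 5.05 against 17.9 CPM on 10 UMIs. The APLNR ratio of −0.73 was −0.37 with TBXT of 2 to 5 UMIs. MSGN1, a gene of presomitic mesoderm, stood at 9.60 against 3.92 CPM, under the 10 CPM needed to be counted, and was found in 13 of 146 cells (8.90%) against 3.42%. TBX6, its neighbour in that pathway, stood at 6.57 against 6.12 CPM. The lists for cell division, stress and energy gave no gene past 1.5-fold: 17 measured S phase genes (median −0.04), 18 of G2 and mitosis (0.03), 10 of dissociation and stress (0.00) and 14 of glycolysis (−0.06). Retinoid handling gave none of 6, NOTCH 1 of 7 (DLL3, lower), germ cell genes 1 of 4 (PRDM1, lower, at −1.03 and at −0.05 with thinning before gating, with 24 of the comparison's 219 UMIs in 1 cell), haemato-endothelial genes none of 1, and none of 10 neural ectoderm genes was measured.

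**Figure D3:**
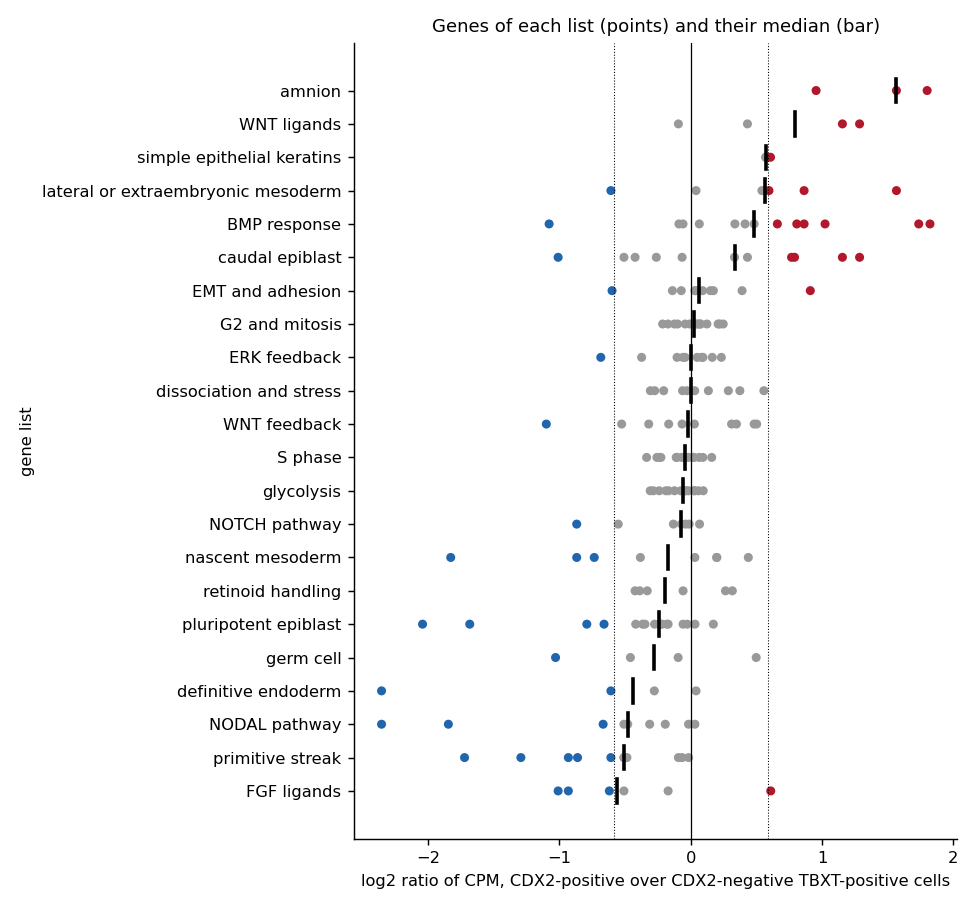
Log2 ratio of CPM, CDX2-positive over CDX2-negative TBXT-positive cells, for each measured gene (points) of the lists with at least 3 measured genes, with the list's median as a bar and dotted lines at 1.5-fold. Points past 1.5-fold are red where higher and blue where lower. The amnion, WNT ligand and BMP response lists have medians of 1.57, 0.79 and 0.48, and the FGF ligand, primitive streak and NODAL lists have medians of −0.56, −0.51 and −0.48.

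The cells varied with their CDX2 count. From cells with 0 to cells with 1, 2, and 3 or more CDX2 UMIs (1142, 115, 21 and 10 cells, median depths from 12753 to 14222 UMIs), CER1 stood at 178, 44.1, 6.73 and 0 CPM. EOMES stood at 181, 109, 67.3 and 74.0 CPM in the same classes. WNT5B stood at 20.5, 41.5, 74.0 and 86.3 CPM. CER1, WNT5B and EOMES thus lay farther from the comparison with each step up to 2 CDX2 UMIs. These genes were among those picked for their ratio over all CDX2-positive cells, most of which are the 115 with 1 UMI. Their first step was thus largely set by that choice. The classes also use the CDX2 count that defined the cells. The 31 cells with at least 2 CDX2 UMIs held 2 CER1 and 36 WNT5B UMIs in all. These are too few to order the last 2 classes. CYP26A1 went down with the count, at 95.6, 84.2, 30.3 and 24.7 CPM, where the last 2 values rest on 13 UMIs in all. EVX1 showed no such order, at 21.6, 38.2, 40.4 and 24.7 CPM, and the last value rests on 4 UMIs.

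**Figure D4:**
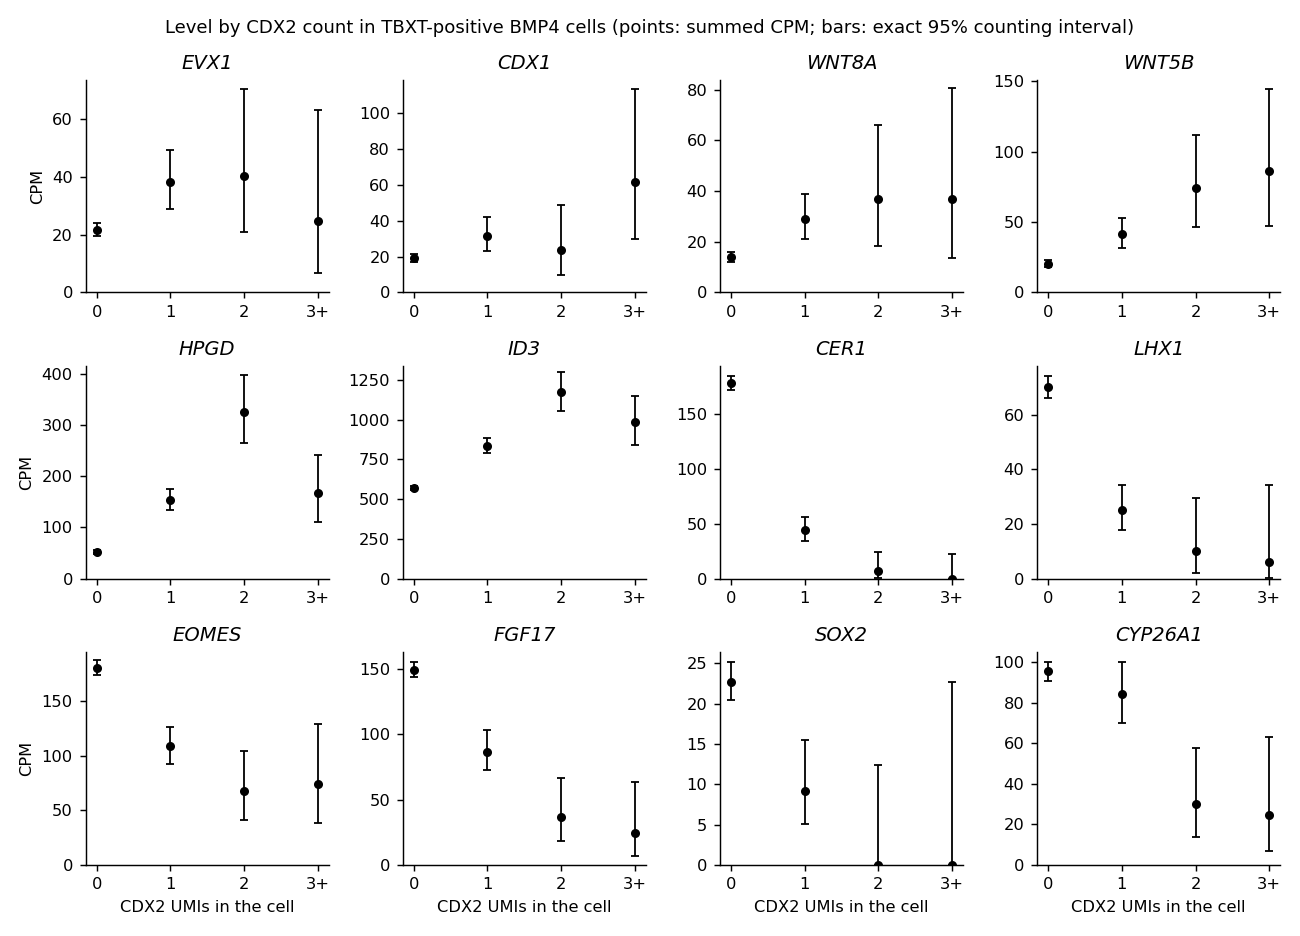
Level (CPM, points) of 12 genes in TBXT-positive cells by the number of CDX2 UMIs in the cell (0, 1, 2, or 3 and more), with exact 95% counting intervals as bars. CER1, LHX1, EOMES and FGF17 are lower in every class with CDX2 than without, and the intervals of the 21 and 10 cells with most CDX2 UMIs are wide. These genes were among those picked for a low ratio over all CDX2-positive cells.

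The cells were also split by TBXT count, into 67 cells with 2 to 3 UMIs, 62 with 4 to 7 and 17 with 8 or more, beside 679, 410 and 53 comparison cells. CER1 stood at 31.8, 45.9 and 10.0 CPM in the 3 classes, against 173, 194 and 125 CPM in the matched comparison cells. CDX1 stood at 21.6, 31.3 and 66.7 CPM, against 16.9, 21.5 and 26.9 CPM. Its difference was widest in the 17 cells with most TBXT, for which no interval is given. Other caudal genes did not share that order. The EVX1 log2 ratio was 1.02 with TBXT of 2 to 5 UMIs and 0.28 with at least 4. For CDX1 these ratios were 0.39 and 0.85, and for WNT8A they were nearly the same.

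The limits cut through a continuous range of counts, so the cells just outside each are given beside those just inside. At 1 TBXT UMI, 40 more CDX2-positive cells had CER1 at 69.4 CPM and HPGD at 238 CPM, against 57.2 and 151 CPM in the 38 cells with 2. EVX1, CDX1 and WNT8A stood at 28.1, 20.6 and 18.7 CPM outside and 27.5, 20.6 and 22.9 CPM inside. At 2 MESP1 UMIs, 50 cells had EOMES at 137 CPM and EVX1 at 27.6 CPM, against 124 and 39.97 CPM in the 55 cells with 1. CDX1 and WNT8A stood nearer, at 36.4 and 28.9 CPM outside and 38.5 and 35.7 CPM inside. At 1 TFAP2A UMI, 66 cells had HPGD at 376 CPM, GATA3 at 38.3 CPM and CYP26A1 at 30.3 CPM, against 181, 17.7 and 71.2 CPM in the 146 cells without. EVX1, CDX1 and WNT8A stood at 29.3, 31.3 and 20.2 CPM in the 66 cells, against 37.4, 32.8 and 30.8 CPM. At 2 SOX17 UMIs, 6 cells had no CER1 UMI, and the 12 cells with 1 SOX17 UMI had 1 CER1 UMI. Of the 146 cells, 1 lay within 10% above the UMI minimum for a cell, and none of the 736 barcodes between 1000 UMIs and that minimum met the gene limits.

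The same limits picked few cells under the other treatments. They were met by 68 of 7084 CHIR cells (0.960%, 0.746 to 1.22) and 30 of 6876 CHIR+Activin cells (0.436%, 0.295 to 0.622). CDX2 had 1 UMI in 65 of the 68 and in 28 of the 30, and stood at 0.777 and 0.551 CPM in those libraries against 15.2 CPM in BMP4. The 68 CHIR cells were deeper than their comparison cells, with a median of 38358.5 against 28441.5 UMIs. With cells of all libraries thinned to 8000 UMIs, 118 of 8598 BMP4 cells (1.37%, 1.14 to 1.64), 4 of 6958 CHIR cells (0.0575%, 0.0157 to 0.147) and 3 of 6735 CHIR+Activin cells (0.0445%, 0.00919 to 0.130) met the limits. At like depth the BMP4 share lay above the others by more than counting error within each library. With 1 library a treatment, a difference between treatments was not tested. Thinning also removed TBXT-positive cells unevenly. The limits apart from CDX2 were met by 489 CHIR cells after thinning (2110 without it). For CHIR+Activin the counts were 515 (1521 without it), and for BMP4 1277 (1288 without it). The shares of all cells thus mix loss of TBXT UMIs with the CDX2 share.

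In CHIR, with 68 cells against 2042, some of the lower genes were also lower and none of the higher genes was higher. After thinning, 4 of 489 CHIR cells within the limits apart from CDX2 had a CDX2 UMI (0.818%, 0.223 to 2.08). That share was near the 0.820% of SOX2-positive, TBXT-negative BMP4 cells. Whether the 68 are cells like the 146 was not tested. In CHIR, EVX1 and WNT8A were under 10 CPM. CDX1 stood at 13.1 against 9.66 CPM and CYP26A1 at 10.1 against 20.2 CPM in CHIR. Of the 15 genes highest in BMP4, 11 reached 10 CPM there and none was at least 1.5-fold higher. Of the 15 lowest, 14 did so and CER1, FGF17 and PLXNA2 were at least 1.5-fold lower. Over all 4059 CHIR genes at 50 CPM or more, 1 (0.0246%) was higher, TAGLN, and 7 (0.172%) were lower, CER1 and FGF17 among them. CER1 stood at 42.9 against 93.0 CPM, a log2 ratio of −1.12 (−1.39 to −0.85), and FGF17 at 17.2 against 59.8 CPM, a log2 ratio of −1.80 (−2.25 to −1.38). SOX2 differed the other way from BMP4, with 78.8 against 56.3 CPM and a log2 ratio of 0.49 (0.28 to 0.69). ID3 stood at 199 against 223 CPM and EOMES at 104 against 116 CPM, neither past 1.5-fold. No ratio was taken for the 30 CHIR+Activin cells, under the minimum of 50. The difference in ratios between libraries was not tested, and depth moved with the CDX2 gate in CHIR.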

How the data were processed

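RNA of pooled micropatterns was counted in 3 libraries of the 10x Chromium 3' v3.1 assay, 1 per treatment. Values are UMI counts as deposited, not normalized, for 38606 genes; per the file headers the authors ran Cell Ranger 8.0.1, and the submitters' processing notes also list Seurat. They used a genome build and strand setting not given in the sources used here. The BMP4 matrix held 1935344 barcodes, of which 9440 reached 3739 UMIs (10% of the 99th percentile among the 10000 barcodes with most UMIs). The CHIR and CHIR+Activin matrices held called cells. In each library, cells with fewer than 2000 genes or over 15% mitochondrial UMIs were left out (39, 622 and 515 barcodes).

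The cells and the 25 gene lists were chosen with earlier results of these data known. Counts were summed per gate, scaled to CPM, and compared as log2 ratios with an exact conditional binomial interval. With a group at 0, 3 counts were used. Genes of at least 10 CPM in either group were compared, leaving out the 5 genes of the gate. Named genes are the markers, the 15 highest and 15 lowest ratios at 50 CPM or more, and the list genes. Shares carry exact Clopper-Pearson intervals. Doublets were scored with Scrublet (scanpy 1.11.5). Its automatic threshold marked 0 of 9401 cells and so did not work, and none were removed. The highest-scoring 6% (564 cells) held 7 of the 146 cells, and leaving them out was an alternative. The calculation was tested on simulated summed counts without variation between cells. That simulation cannot show how the intervals hold where many UMIs of a gene come from 1 cell. Python 3.11.15, numpy 2.4.6, scipy 1.17.1 and pandas 2.3.3 were used. Some named genes are not reported here.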

Additional observations from a re-analysis of the deposited data

How the results depend on the processing

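No paired analysis was possible because each treatment was 1 library. The number of genes at least 1.5-fold higher, 218, was 434 with all cells thinned to 8000 UMIs before gating, 896 with CDX2 of at least 2 UMIs, 407 with TBXT of at least 4, 334 with TBXT of 2 to 5, 376 with MESP1 and SOX17 at 0, 363 without cells holding GATA3, ISL1 or HAND1, and 385 without cells holding amnion-list UMIs other than of HPGD and TBX3. It was 27 at 50 CPM or more and 2015 at 1 CPM or more. The number lower, 380, was 685 with thinning, 1526 with CDX2 of at least 2 UMIs, 662 with TBXT of at least 4, 45 at 50 CPM and 2029 at 1 CPM. By construction the other gates sum fewer cells, and the CPM minimum sets how many genes are compared. The 146 cells became 31 with CDX2 of at least 2 UMIs, 79 with TBXT of at least 4, 82 with MESP1 and SOX17 at 0, 95 without GATA3, ISL1 or HAND1 UMIs and 88 without amnion-list UMIs. Of 60 named genes past 1.5-fold, 58 kept their sign under the 14 settings that gave ratios and 38 stayed past 1.5-fold in all. These genes were counted because they passed 1.5-fold over the 146 cells, and many had been named for their ratio there. Some settings also reuse nearly the same cells, with 144, 145 and 139 of the 146. Keeping the sign was thus largely set by these choices and is not an independent check. The log2 ratio of DUSP6 was 0.13 with thinning and that of NKAIN2 was −0.012 with CDX2 of at least 2 UMIs, and the cause was not tested. The settings with CDX2 of exactly 1 UMI and without amnion-list UMIs were added after the data were seen. With 1979207 UMIs in 146 cells, 10 CPM is about 20 UMIs, which limits the precision of ratios of low genes.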
